A study of Homo sapiens with 9 samples.

Results

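Small nucleolar RNA host genes are noncoding genes whose introns hold small nucleolar RNAs. They were taken from the deposited count table by symbol, as every SNHG gene with a number together with GAS5, ZFAS1, DANCR and EPB41L4A-AS1. The rule found 26 entries with 25 symbols among the 64253 genes of the table, and 24 of the 26 had enough reads to be tested, among 16366 tested genes. The 2 entries that were not tested are SNHG22, with 0 or 1 read in each library, and a second entry named SNHG7 (ENSG00000280325), with 0 reads in all 9 libraries. A count of 0 allows a level of up to 0.0751 to 0.0872 CPM (counts scaled to the library total), depending on the library and taking 3 counts as the limit.

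Box C/D small nucleolar RNAs guide ribose methylation of ribosomal RNA and box H/ACA ones guide its pseudouridylation, while small Cajal body RNAs guide the same changes on spliceosomal RNAs. The guide RNA is released from the spliced-out intron, and the host exons are joined into an RNA that reaches the cytoplasm. Several of these spliced RNAs, GAS5 being the classical case, begin with the terminal oligopyrimidine tract found on ribosomal protein mRNAs, are bound by ribosomes despite having no long reading frame, and are degraded by nonsense-mediated decay, so that blocking translation raises their level.

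The cells were EPC2, a human esophageal epithelial line that the labels describe as normal squamous cells. Fox cells were given a plasmid carrying FOXF1 together with the lipid reagent Lipofectamine 2000. Lipo cells were given the empty vector with that reagent, and Ctrl cells were left untreated. Each group has 3 libraries, called biological triplicates in the design text, and a p-value here sets a difference between groups against the spread among them. FOXF1 encodes a forkhead transcription factor, and the series was set up to ask whether its overexpression starts changes like those of Barrett's metaplasia. The labels give neither the time after transfection nor the share of cells that took up the plasmid.

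Library totals ran from 34390666 to 39973289 counts. FOXF1 had 141 to 367 reads in Fox libraries, 0 to 6 in Lipo libraries and 0 or 1 in Ctrl libraries. Of the 8 squamous markers, TP63 had 0 reads in every library, KRT14, KRT13, KRT4, IVL and DSG3 had at most 4, KRT5 had 8 to 19 and KRT6A 23 to 67, so these markers do not bear out the squamous label. The simple epithelium keratins KRT8, KRT18 and KRT7 averaged 1437, 1470 and 1226 CPM in Ctrl cells. EPCAM and CDH1, also listed as simple epithelium markers, averaged only 4.37 and 8.98 CPM there. These and all later CPM values are on library sizes scaled by TMM, which corrects for composition. COL1A2, LUM and PTPRC, markers of fibroblasts and leukocytes, were at 0 reads throughout, and the other markers of these cells and of endothelium had at most 35. Counts mapped to genes of the mitochondrial genome made up 14.1 ± 0.518% of Fox, 11.2 ± 0.759% of Lipo and 20.9 ± 2.0% of Ctrl libraries (SD, n = 3).

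The start of the annotated transcript was read for 23 of the 24 tested host genes from GENCODE release 29 on GRCh38. SNHG24 has no entry there. A tract start was taken as a C at the first base and a run of at least 4 C or T bases, on the sense strand only. At least 1 annotated transcript had it in 14 of these 23 genes (60.9%), against 3682 of all 16213 tested genes with a transcript (22.7%). Counted by transcript, 32 of 254 host gene transcripts (12.6%) and 5338 of 130675 transcripts of all tested genes (4.08%) had it, so a gene with many annotated transcripts has more chances to be counted. The sequences below are the first 30 bases of the most upstream transcript with a tract start, or of the most upstream transcript where none has it. Capitals mark the leading run of C and T. They are shown because they set hosts with the tract beside those without it, and because they hold the genes whose values are described further on.
GAS5-210: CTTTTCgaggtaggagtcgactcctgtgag
SNHG16-204: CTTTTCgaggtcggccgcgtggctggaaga
SNHG19-201: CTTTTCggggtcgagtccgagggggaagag
SNHG5-202: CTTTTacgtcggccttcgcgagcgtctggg
ZFAS1-201: CTTTCgcgtctgcggtgcccggagtgtggt
SNHG8-205: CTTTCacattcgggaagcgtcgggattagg
SNHG1-203: CTCCTgtctgcaggatttacgcgcacgttg
SNHG7-201: CTCTgcgtgcgccggaggctgccgtggcgg
SNHG17-201: Cgtagcttccttgtcgtgtggcctcagtcc
DANCR-201: agagtcttcccgggattggctgcgggcctc
EPB41L4A-AS1-201: Tgtcgggtcccaaaatacgtggtctaaagt

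GAS5 and SNHG16 share their first 11 bases, CTTTTCGAGGT, although they lie on different chromosomes and host different guide RNAs. SNHG19 shares the first 7 of these, and SNHG5 the first 5. ZFAS1 and SNHG8 open with the same 5 bases. No tract start was annotated for DANCR, EPB41L4A-AS1, SNHG17 or SNHG15. Annotated starts were not measured in these libraries, so the match describes the annotation and not the RNA in the cells.

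Per length, the highest hosts in Ctrl cells were SNHG17 at 26.7 ± 1.40, SNHG19 at 23.2 ± 1.11, GAS5 at 22.6 ± 0.870 and SNHG1 at 21.4 ± 0.797 RPKM (TMM-scaled CPM per kilobase of merged exons; SD, n = 3). The spreads of SNHG19, GAS5 and SNHG1 overlap. SNHG6 at 12.0 ± 0.530 and SNHG8 at 11.6 ± 0.662 RPKM followed and also overlap. Merged exons include introns retained in some annotated transcripts, which lowers the values of hosts with many transcripts. SNHG14, spread over 43324 merged exon bases, was at 0.196 ± 0.0231 RPKM.

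By reads, SNHG17, GAS5 and SNHG1 held 19.9%, 16.0% and 14.6% of all host gene counts. Of the entries, 14 averaged at least 10 CPM over the 9 libraries and 21 at least 1 CPM. SNHG23, SNHG21 and SNHG24 were tested at averages of 0.721, 0.572 and 0.298 CPM. The table holds 1029 rows for small nucleolar and small Cajal body RNAs, of which 835 had no read in any library. These rows together held 381 to 593 reads per library. The libraries were made for polyadenylated RNA, so the counts measure the host RNAs and not their guide RNAs.

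**Figure D1:**
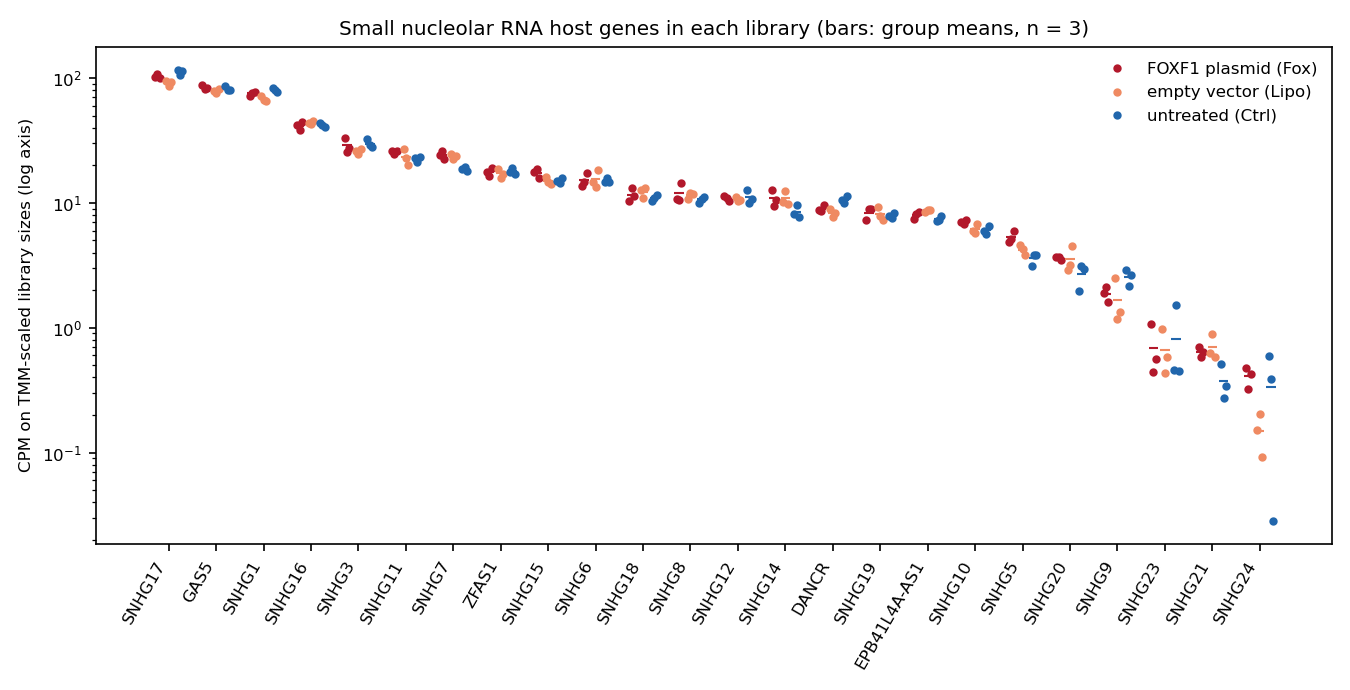
CPM on TMM-scaled library sizes (log axis) of the 24 tested small nucleolar RNA host genes in each library, ordered by total count, with Fox, Lipo and Ctrl from left to right and a short bar at each group mean (n = 3). Levels span from 111.9 CPM for SNHG17 in Ctrl cells to below 1 CPM for SNHG23, SNHG21 and SNHG24, and SNHG7 is the gene above 10 CPM whose Fox and Lipo libraries all lie above Ctrl.

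Of the 24 tested host genes, 4 passed the test in at least 1 comparison. SNHG7 was higher with either plasmid than in untreated cells, SNHG17 and SNHG1 were lower with the empty vector, and SNHG5 was higher with the FOXF1 plasmid than in untreated cells. No host gene passed the test between the FOXF1 plasmid and the empty vector. All host gene changes that passed were below 1.5-fold. In Lipo against Ctrl 12.5% of host genes passed, beside 19.6% of all tested genes. In Fox against Ctrl 8.33% passed, beside 8.52%, and in Fox against Lipo 0 of 24, beside 0.055%.

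Among hosts of box H/ACA RNAs, SNHG17 carries 4 copies of the SNORA71 family in its introns (chr20:38420588-38435353, minus strand, GRCh38). It had 102, 108 and 99.1 CPM in Fox, 94.7, 86.0 and 93.2 CPM in Lipo and 117, 105 and 114 CPM in Ctrl libraries. The Lipo libraries lay below all Ctrl and all Fox libraries, while Fox and Ctrl overlapped. SNHG17 was lower in Lipo than in Ctrl by a log2 fold change of -0.29 ± 0.07 (SE), or 18.5% lower, and its adjusted p was 0.00166 (edgeR's quasi-likelihood test with Benjamini-Hochberg adjustment over all tested genes). Fox against Lipo gave 0.18 ± 0.07, with an unadjusted p of 0.0128 and an adjusted p of 0.408 in the same edgeR test. Fox against Ctrl gave -0.12 ± 0.07, with an adjusted p of 0.301 (edgeR).

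SNHG7 hosts SNORA17A and SNORA17B and lies at chr9:136721366-136728184 on the minus strand. It had 24.2, 26.1 and 22.4 CPM in Fox, 24.8, 22.5 and 23.6 CPM in Lipo and 18.7, 19.4 and 18.2 CPM in Ctrl libraries. Every Fox and Lipo library was above every Ctrl library, and Fox and Lipo overlapped. The log2 fold change was 0.33 ± 0.09 for Lipo against Ctrl (adjusted p = 0.0086, edgeR) and 0.37 ± 0.09 for Fox against Ctrl (adjusted p = 0.00874, edgeR), 2 comparisons that share the Ctrl libraries. Fox against Lipo gave 0.03 ± 0.09, with a 95% interval of -0.15 to 0.22. Without Fox replicate 2 the Fox against Ctrl value was 0.30, with an adjusted p of 0.0856 (edgeR).

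The second entry named SNHG7 is called AC074183.2 in GENCODE release 29 and lies at chr7:84939335-84940256. Its only transcript aligns to SNHG7-202 over 789 bases, of which 740 (93.8%) are identical. Reads that match both would be assigned by rules that the counts do not show, so the SNHG7 level is uncertain to that extent. Exons of SNHG7 also overlap FAM69B on the opposite strand, and the strand setting of the counting is not given in the sources used here. FAM69B had 1278 to 1691 reads per library and log2 fold changes of 0.00 in Lipo against Ctrl and 0.02 in Fox against Ctrl, neither of which passed.

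DANCR (chr4:52712404-52720351, plus strand), host of SNORA26, is known in human epidermis as an RNA that holds progenitor cells back from differentiating. It had 8.70, 8.68 and 9.65 CPM in Fox, 8.96, 7.72 and 8.35 CPM in Lipo and 10.5, 9.90 and 11.3 CPM in Ctrl libraries. All Fox and all Lipo libraries lay below all Ctrl libraries. Neither difference passed over all genes: the log2 fold change was -0.34 ± 0.13 in Lipo against Ctrl (adjusted p = 0.0573, edgeR) and -0.23 ± 0.13 in Fox against Ctrl (adjusted p = 0.304, edgeR). With DESeq2 the same Lipo against Ctrl comparison gave an adjusted p of 0.0195. DANCR also passed there in edgeR with RLE in place of TMM factors (adjusted p = 0.0381) and with GC content and length offsets (adjusted p = 0.0226). Without Lipo replicate 1 the adjusted p was 0.0358 (edgeR), and in the remaining fits DANCR did not pass.

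EPB41L4A-AS1 (chr5:112160526-112164276, plus strand), host of SNORA13, had 7.48, 8.09 and 8.37 CPM in Fox, 8.40, 8.81 and 8.79 CPM in Lipo and 7.19, 7.36 and 7.88 CPM in Ctrl libraries. All Lipo libraries lay above both other groups, although narrowly above the highest Fox library, and Fox and Ctrl overlapped. Its log2 fold changes were -0.12 ± 0.13 in Fox against Lipo, 0.21 ± 0.13 in Lipo against Ctrl and 0.09 ± 0.13 in Fox against Ctrl, with adjusted p-values of 0.833, 0.277 and 0.747 (edgeR). Its exons overlap EPB41L4A on the opposite strand, which had only 2 to 13 reads per library.

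Among hosts of box C/D RNAs, SNHG1 carries 8 of them, from SNORD22 to SNORD31 (chr11:62851988-62855914, minus strand). It had 72.3, 75.7 and 78.0 CPM in Fox, 71.5, 67.2 and 65.5 CPM in Lipo and 83.7, 79.6 and 77.9 CPM in Ctrl libraries. The Lipo libraries lay below all Fox and all Ctrl libraries, while Fox and Ctrl met at 78.0 and 77.9 CPM. SNHG1 was lower in Lipo than in Ctrl by a log2 fold change of -0.24 ± 0.07 (adjusted p = 0.00921, edgeR). Fox against Lipo gave 0.15 ± 0.07, with an unadjusted p of 0.0351 and an adjusted p of 0.502 (edgeR), and Fox against Ctrl gave -0.09 ± 0.07 with an adjusted p of 0.436 (edgeR).

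SNHG5, the host of SNORD50A and SNORD50B, lies at chr6:85660950-85678748 on the minus strand. It had 4.82, 5.12 and 5.92 CPM in Fox, 4.57, 4.24 and 3.86 CPM in Lipo and 3.10, 3.86 and 3.80 CPM in Ctrl libraries. The 3 groups did not overlap, although the lowest Lipo library and the highest Ctrl library both round to 3.86 CPM. Its log2 fold change of 0.56 ± 0.18 in Fox against Ctrl, or 1.47-fold, was the largest that passed among the host genes (adjusted p = 0.0435, edgeR). Fox against Lipo gave 0.32 ± 0.17 (adjusted p = 0.565, edgeR) and Lipo against Ctrl 0.23 ± 0.18 (adjusted p = 0.39, edgeR). The Fox against Ctrl call was lost in 7 of the 9 fits that left out a library, with values of 0.45 to 0.62 over all 9, and with limma-voom (adjusted p = 0.0546).

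ZFAS1 (chr20:49278178-49295738, plus strand) hosts 3 RNAs of the SNORD12 family and starts on the opposite strand to ZNFX1, with which its exons overlap. It had 17.7, 16.4 and 19.1 CPM in Fox, 18.7, 16.0 and 17.1 CPM in Lipo and 17.7, 18.9 and 16.9 CPM in Ctrl libraries. The 3 groups overlapped throughout. Its 3 log2 fold changes lay between -0.05 and 0.04, and the 95% intervals reached from -0.25 to 0.24. ZNFX1 had 5983 to 7990 reads per library and did not pass in any comparison either.

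GAS5 (chr1:173863900-173868882, minus strand), named for its accumulation in growth-arrested cells, hosts 10 box C/D RNAs and 1 box H/ACA RNA. It had 87.7, 81.0 and 83.7 CPM in Fox, 78.0, 76.3 and 82.4 CPM in Lipo and 85.6, 80.5 and 79.8 CPM in Ctrl libraries. The 3 groups overlapped. Its log2 fold changes were 0.09 ± 0.06 in Fox against Lipo, -0.06 ± 0.07 in Lipo against Ctrl and 0.04 ± 0.07 in Fox against Ctrl, with adjusted p-values of 0.699, 0.615 and 0.803 (edgeR). The Lipo against Ctrl value depended on the processing in both directions: it turned to 0.19 with library size alone as the scale (adjusted p = 0.0235, edgeR) and was -0.22 with offsets for GC content and length (adjusted p = 0.0181, edgeR).

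**Figure D2:**
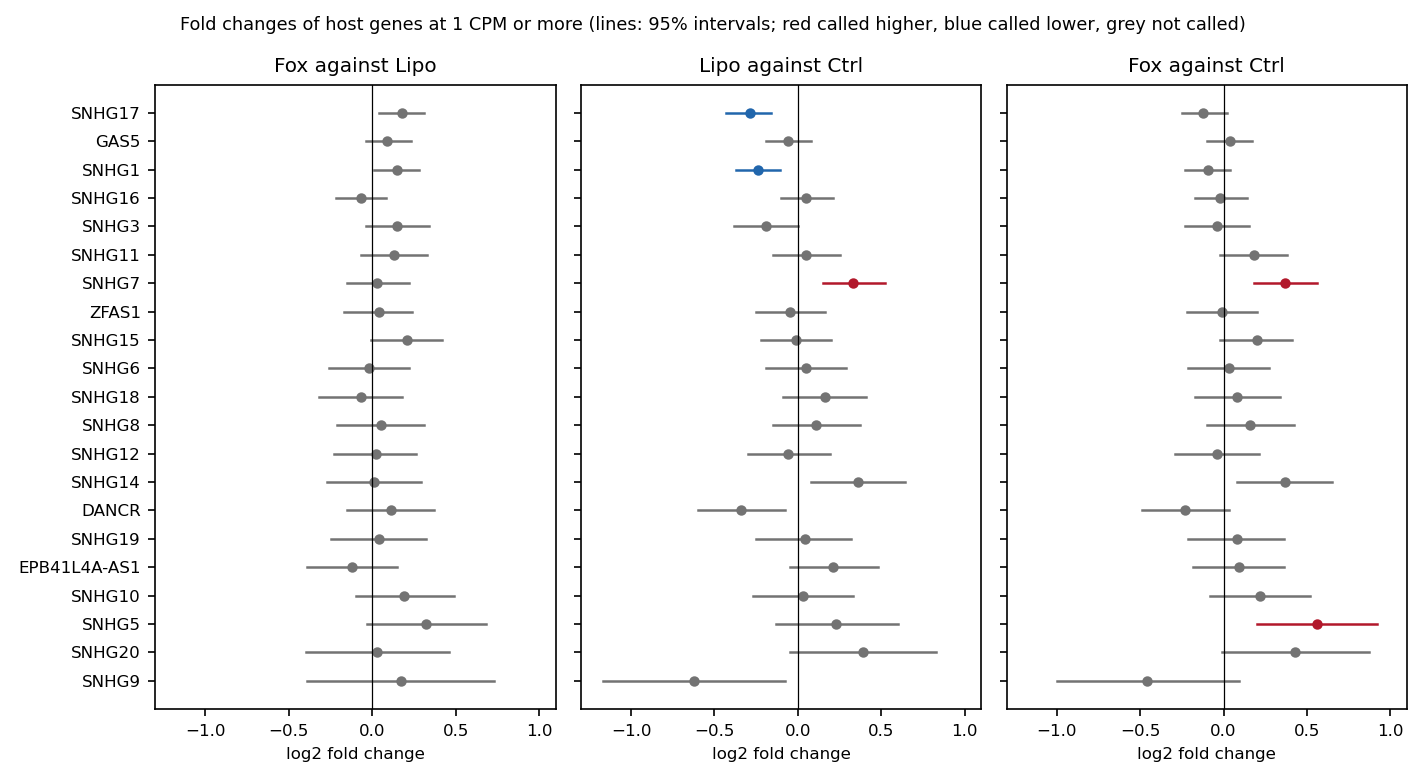
Log2 fold change (points) with 95% interval (lines) of the 21 host genes that averaged at least 1 CPM, for Fox against Lipo, Lipo against Ctrl and Fox against Ctrl, with genes from the highest to the lowest total count down the page. SNHG7 was called higher in the middle and right panels, SNHG5 in the right panel, and SNHG17 and SNHG1 were called lower in the middle panel. No gene is coloured in the left panel.

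Between the FOXF1 plasmid and the empty vector, 0 of 24 host genes passed the edgeR test at an adjusted p below 0.05, and 0.055% of all tested genes passed. At an unadjusted p below 0.05 there were 3 host genes, SNHG17, SNHG1 and SNHG24, all higher in Fox. They are 12.5% of the host genes, near the 9.43% of all tested genes at that level. limma-voom called 0, and DESeq2 called 0 but gave an adjusted p for only 3 of the host genes. Fold changes were above 0 for 19 of the 24, with a median of 0.06, against 46.6% of all tested genes and a median of -0.01. With library size alone, 10 of the 24 were above 0, against 25.3% of all tested genes, and the host gene median was -0.03. The groups did not overlap for 6 host genes (25.0%), 5 higher and 1 lower in Fox, against 13.0% of all tested genes. For the 14 host genes that averaged at least 10 CPM, the 95% intervals lay within a 0.801-fold to 1.34-fold range. SNHG24 had the largest value, a log2 fold change of 1.43 ± 0.68, on 0.472, 0.324 and 0.427 CPM in Fox and 0.151, 0.204 and 0.0930 CPM in Lipo libraries.

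Between the empty vector and untreated cells, 3 of 24 host genes passed the edgeR test, 1 higher (SNHG7) and 2 lower (SNHG17 and SNHG1), while 19.6% of all tested genes passed, 10.2% higher and 9.37% lower. The 12.5% of host genes that passed is below that background, but it rests on 3 genes and the difference was not tested. Of 1801 other tested noncoding genes, 62 were higher and 32 lower (5.22%). The groups did not overlap for 9 host genes (37.5%), 5 higher and 4 lower in Lipo, against 32.6% of all tested genes. The median log2 fold change was 0.03 for host genes and 0.04 for all tested genes. At an unadjusted p below 0.05 (edgeR) there were 7 host genes (29.2%), against 31.5% of all tested genes. Besides DANCR, 3 host genes had an unadjusted p below 0.05 without passing: SNHG14 at 0.36 ± 0.14 (adjusted p = 0.0672, edgeR), SNHG9 at -0.62 ± 0.27 (adjusted p = 0.103, edgeR) and SNHG3 at -0.19 ± 0.09 (adjusted p = 0.151, edgeR). These 3 are named here after their values were seen. SNHG14 runs through the imprinted Prader-Willi region, and its exons overlap SNRPN on the same strand and UBE3A on the other, neither of which passed in any comparison.

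Between the FOXF1 plasmid and untreated cells, 2 of 24 host genes passed the edgeR test, both higher (SNHG7 and SNHG5), while 8.52% of all tested genes passed, 4.63% higher and 3.89% lower. The 8.33% of host genes that passed is near that background. The groups did not overlap for 8 host genes (33.3%), 6 higher and 2 lower in Fox, against 26.6% of all tested genes. The median log2 fold change was 0.08 for host genes and 0.02 for all tested genes. This comparison and the one before it share the Ctrl libraries. Leaving out Fox replicate 2 left 0 calls among host genes, and 1 call remained without Fox replicate 1 or 3, without any of the 3 Ctrl libraries, or without Lipo replicate 2. Over all tested genes, 5.53% were called without Fox replicate 2 and 4.88% to 9.11% in the other fits named, beside 8.52% with all libraries.

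Host genes were also counted by annotated start and by guide RNA class. With a tract start, 2 of 14 passed in Lipo against Ctrl, 1 in each direction, with a median log2 fold change of 0.05. Without one, 1 of 9 passed, with a median of -0.01. Over all tested genes 19.6% passed in that comparison. In Fox against Ctrl, 2 of 14 passed with a tract start and 0 of 9 without one, against 8.52% of all tested genes, and the medians were 0.06 and 0.09. At an unadjusted p below 0.05 (edgeR) there were 3 of 14 with a tract start and 0 of 9 without one, against 21.9% of all tested genes. The Fox and Ctrl libraries did not overlap for 3 of 14 (21.4%) and 5 of 9 (55.6%), against 26.6% of all tested genes. By guide RNA class, 2 of 9 hosts of box H/ACA RNAs and 1 of 9 hosts of box C/D RNAs passed in Lipo against Ctrl, on either side of the 19.6% of all tested genes. The 3 tested hosts of small Cajal body RNAs, SNHG10, SNHG20 and SNHG21, had fold changes above 0 against Ctrl with either plasmid. None of the 3 passed, at unadjusted p-values of 0.843, 0.0767 and 0.052 in Lipo against Ctrl (edgeR). SNHG10 was at only 0.03 in that comparison, and at -0.05 without Lipo replicate 3. SNHG21 had only 10 to 39 reads per library. Exons of SNHG20 are shared on the same strand with SEC14L1. That gene was at -0.31 in Lipo against Ctrl and -0.26 in Fox against Ctrl (adjusted p = 0.00113 and 0.01055, edgeR). The part of SEC14L1 in the SNHG20 values was not tested. Of all tested genes, 55.6% were above 0 in Lipo against Ctrl and 52.7% in Fox against Ctrl.

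The remaining tested hosts, which did not pass in any comparison, were SNHG3, SNHG6, SNHG8, SNHG9, SNHG10, SNHG11, SNHG12, SNHG14, SNHG15, SNHG16, SNHG18, SNHG19, SNHG20, SNHG21, SNHG23 and SNHG24. SNHG16, the highest of them by reads, averaged 41.6 ± 3.24 CPM in Fox, 43.6 ± 1.16 in Lipo and 42.1 ± 1.52 in Ctrl cells (SD, n = 3). Its 3 log2 fold changes lay between -0.07 and 0.05. SNHG3, whose exons are shared with RCC1 on the same strand, averaged 28.8 ± 3.91 CPM in Fox, 26.0 ± 1.14 in Lipo and 29.7 ± 2.33 in Ctrl cells. SNHG15 averaged 17.4 ± 1.45 CPM in Fox, 15.1 ± 1.05 in Lipo and 15.2 ± 0.695 in Ctrl cells. SNHG23, listed as MEG8 in the annotation, belongs to an imprinted cluster and had 1.52 CPM in Ctrl replicate 2 against 0.455 and 0.454 CPM in the other Ctrl libraries.

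As a share of all counts, the 26 entries together made up 0.0529 ± 0.00153% in Fox, 0.0530 ± 0.000403% in Lipo and 0.0474 ± 0.00130% in Ctrl libraries (SD, n = 3). Every Fox and Lipo library was above every Ctrl library. The difference was 0.00567 percentage points for Lipo minus Ctrl and 0.00557 for Fox minus Ctrl, each with p = 0.1 in an exact two-sided permutation test, the smallest that 3 against 3 libraries can give. When mitochondrially encoded genes were left out of the total, the shares were 0.0616 ± 0.00144% in Fox, 0.0598 ± 0.000767% in Lipo and 0.0599 ± 0.000668% in Ctrl libraries. Lipo minus Ctrl was then -0.000113 percentage points (exact permutation p = 0.8) and Fox minus Ctrl 0.00175 (exact permutation p = 0.2). The higher share among all counts stood beside the lower mitochondrial share of both plasmid groups. Among nuclear-encoded counts, the libraries of all 3 groups overlapped. In bulk libraries, fewer cells with an RNA and less of it per cell cannot be told apart.

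The scale also sets how many single genes passed. With library size alone and no correction for composition, the median log2 fold change of all tested genes in Lipo against Ctrl was 0.29, a shift of 0.25. On that scale 11 of 24 host genes were called, all higher, against 1 higher and 2 lower with TMM, and 35.0% of all tested genes were called higher. In Fox against Ctrl the shift was 0.15, and 5 of 24 host genes were called, all higher, against 14.2% of all tested genes. This change of scale moves every gene by nearly the same amount, so it leaves the distance to the median of all genes as it was: 0.29 for SNHG7, -0.34 for SNHG17 and -0.28 for SNHG1.

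**Figure D3:**
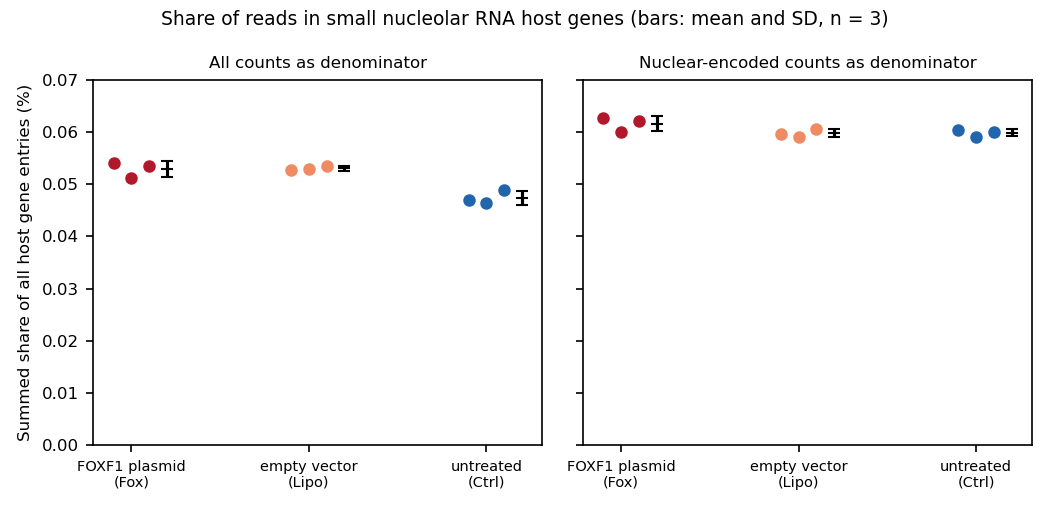
Summed share of the 26 host gene entries in percent of all counts (left) and of nuclear-encoded counts (right), with a point for each library and the mean and SD beside them (n = 3). On the left the Fox and Lipo libraries lie above the Ctrl libraries. On the right Lipo averages 0.0598% and Ctrl 0.0599%.

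The lists that follow hold small nucleolar ribonucleoproteins, protein-coding hosts, RNA decay factors, and translation control and stress response genes. These lists were chosen with earlier results of these data known, so the shares that passed describe them and do not test them. All values are for Lipo against Ctrl unless stated, where 19.6% of all tested genes passed, 10.2% higher and 9.37% lower. The same shares in Fox against Ctrl were 8.52%, 4.63% and 3.89%. Of 18 tested proteins of small nucleolar ribonucleoproteins and their assembly, 5 passed (27.8%) and all 5 were lower, with a median log2 fold change of -0.10 against 0.04 for all tested genes. NHP2L1, which binds the kink-turn of box C/D RNAs, was at -0.41 ± 0.07 (adjusted p = 0.000108, edgeR), and NOLC1, a nucleolar chaperone of these particles, at -0.35 ± 0.07 (adjusted p = 0.000362, edgeR). The box C/D methyltransferase FBL averaged 477.4 ± 18.3 CPM in Fox, 430.0 ± 26.1 in Lipo and 526.2 ± 32.6 in Ctrl cells (SD, n = 3), and also passed. Of the 18, 2 passed in Fox against Ctrl (11.1%, beside 8.52% of all tested genes), both lower.

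Of 48 protein-coding genes that host small nucleolar RNAs, 6 were higher and 13 lower (39.6% in all). Among those that passed, RPL23A and RPS13, subunits of the cytosolic ribosome, were the lowest at -0.99 ± 0.09 and -0.78 ± 0.09 (adjusted p = 2.29e-09 and 1.65e-07, edgeR). Both have processed pseudogenes in the genome, so how reads were split is uncertain. WDR43, a factor of small ribosomal subunit assembly, and TPT1 were the highest of those that passed, at 0.35 ± 0.12 and 0.30 ± 0.07 (adjusted p = 0.0329 and 0.00316, edgeR). NOP56, NOP58 and DKC1 stand in both this list and that of the ribonucleoproteins. Against Ctrl, 7 of the 48 passed in Fox (14.6%, beside 8.52% of all tested genes), all lower.

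Of 20 nonsense-mediated decay factors, 1 was higher and 6 were lower (35.0% in all). SMG8, a subunit of the kinase complex that acts on UPF1, was at 0.34 ± 0.10 (adjusted p = 0.0193, edgeR), and the release factor gene GSPT1 at -0.37 ± 0.07 (adjusted p = 0.000344, edgeR). Of 21 genes of 5′ to 3′ cytoplasmic decay, 3 were higher and 3 lower (28.6%). LSM3 and LSM5, subunits of the ring that binds deadenylated ends, were at 0.59 ± 0.12 and 0.49 ± 0.15, while LSM2 of the same ring was at -0.44 ± 0.07. Of 17 nuclear exosome genes, 1 was higher and 3 were lower (23.5%, near the share over all genes), with the poly(A) polymerase PAPD5 at 0.84 ± 0.24 and MPHOSPH6 at -0.49 ± 0.13. Each of these 3 lists had 1 gene that passed in Fox against Ctrl, all lower. That is 5.0%, 4.76% and 5.88% of the lists, below the 8.52% of all tested genes.

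Of 27 genes listed for control of tract-bearing mRNAs, for translation under stress and for the stress response that follows it, 11 were higher and 4 lower (55.6%). The 11 were the transcription factors DDIT3, ATF3 and ATF4, the stress-induced genes TRIB3, CHAC1, ASNS, DDIT4 and SESN2, the eIF2alpha phosphatase subunits PPP1R15A and PPP1R15B, and the kinase EIF2AK3. LARP1, which binds the tract, and MTOR and RPTOR of mTORC1 did not pass, at 0.05, -0.12 and -0.04. DDIT3 and ATF3 were the highest at 0.86 ± 0.14 and 0.81 ± 0.18 (adjusted p = 5.31e-05 and 0.00186, edgeR). RPS6KB2, an S6 kinase downstream of mTORC1, and EIF2AK1, an eIF2alpha kinase, were the lowest of those that passed, at -0.40 ± 0.07 and -0.34 ± 0.07 (adjusted p = 0.0001 and 0.000365, edgeR). In Fox against Ctrl, 8 of the 27 were higher and 3 lower (40.7% in all, beside 8.52% of all tested genes). Whether translation or decay rates moved with these genes was not tested.

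Between Fox and Lipo, 0 of the 148 genes of these 6 lists passed with edgeR, with 18 at an unadjusted p below 0.05 (12.2%, beside 9.43% of all tested genes). limma-voom called 0, and DESeq2 called 0 of the 75 genes for which it gave an adjusted p. The simple epithelium markers KRT18 and KRT7 were lower in Lipo than in Ctrl, by log2 fold changes of -0.41 ± 0.08 and -0.26 ± 0.07, 2 of the 5 markers of that list. Their part in the host gene values was not tested.

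**Figure D4:**
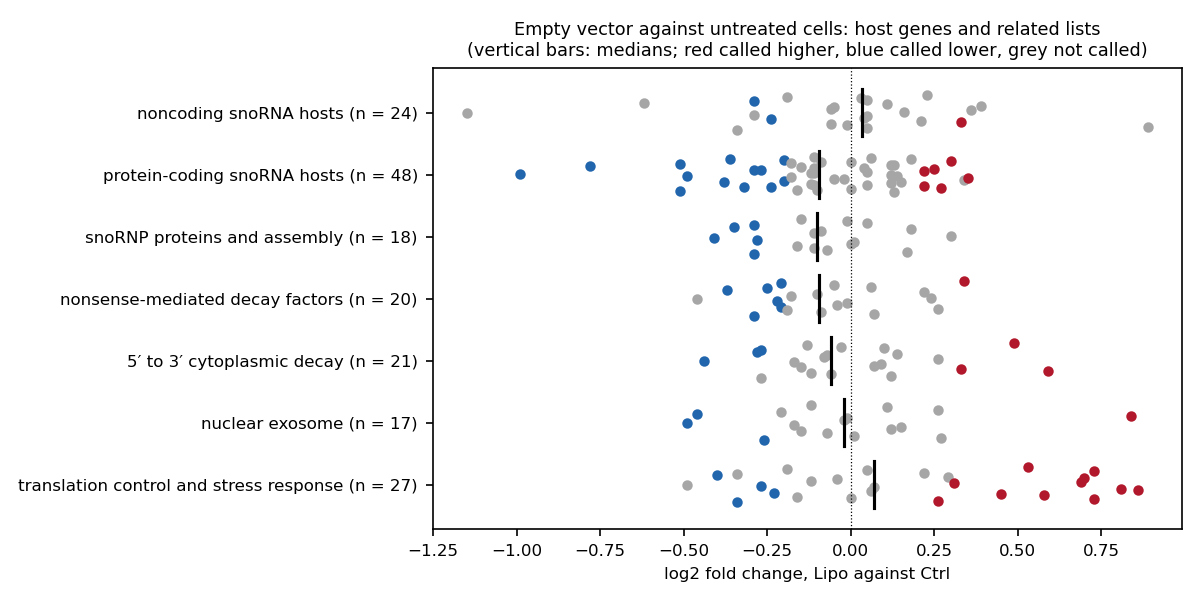
Log2 fold change in Lipo against Ctrl for each tested gene of the noncoding hosts and of 6 related lists, a point per gene, with a vertical bar at each list's median. Red and blue points were called higher and lower at an adjusted p below 0.05 (edgeR), and grey points were not called. The noncoding hosts hold 1 red and 2 blue points, and the list of translation control and stress response genes, in the bottom row, 11 red and 4 blue.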

How the data were processed

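The authors deposited raw read counts, 1 row per Ensembl gene and 1 column per library, according to the file headers. Their processing notes list bcl2fastq, STAR 2.5.2b, HTSeq and the build GRCh38. Per the labels' protocols, a stranded kit for mRNA was used. Neither the annotation release nor the strand setting of the counting is given in the sources used here. Exons of 12 of the 26 entries overlap a gene on the other strand, and SNHG24, absent from the annotation, could not be checked. Small RNA genes aside, 6 entries share exons with another gene on the same strand.

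The analysis used R 4.3.3 and edgeR 4.0.16: filterByExpr with a minimum count of 10, TMM factors, 1 mean per group over all 9 libraries, the quasi-likelihood F test and Benjamini-Hochberg adjustment over 16366 genes, with calls below 0.05. SE was taken as the size of the log2 fold change over the square root of F. The common biological coefficient of variation was 0.101. Alternatives used DESeq2 1.42.0, limma 3.58.1 and, for GC content and length, mgcv 1.9.3. Replicate pairs differed beyond sampling noise (chi-square per degree of freedom, 9.17 to 25.3). Limits for a count of 0 cover counting error only.

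Small nucleolar RNAs were assigned to hosts by position in RefSeq's gene table, and transcript starts came from GENCODE release 29. The host genes and the 6 lists were chosen with earlier results of these data known. Values per library were given for each host called in any comparison and for the 4 genes named in the rule. From each list, at most the 2 highest and 2 lowest called genes in Lipo against Ctrl were named, and FBL, the other higher genes of the translation control list, LARP1, MTOR and RPTOR were added after their values were seen.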

Additional observations from a re-analysis of the deposited data

How the results depend on the processing

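Calls of SNHG7, SNHG17 and SNHG1 in Lipo against Ctrl held with DESeq2, limma-voom, RLE factors, TMM without mitochondrial genes, both other filters on low counts, a fit of only those 2 groups and each library left out. With library size alone, SNHG7 held, SNHG17 was at -0.05 (adjusted p = 0.552), SNHG1 turned to 0.01 (adjusted p = 0.945) and GAS5 to 0.19 (adjusted p = 0.0235), which follows from the shift of the scale. Calls among host genes in Lipo against Ctrl numbered 11 with library size alone, 7 with GC content and length offsets, where 21.6% of all genes were called, and 3 to 6 with a library left out, 6 without Lipo replicate 1 (DANCR, SNHG14 and SNHG9 in addition). In Fox against Ctrl they numbered 5 with library size alone, 4 with GC content and length offsets, 1 without a filter, 1 with limma-voom and 0 to 2 with a library left out. Over all tested genes, these Fox against Ctrl fits called 15.3%, 13.8%, 5.51%, 7.76% and 4.88% to 10.3%, beside 8.52% in the main fit. For Lipo against Ctrl, library size alone called 37.0% of all genes and fits without a library 12.5% to 23.3%, beside 19.6%. Without a filter, the call of SNHG5 was lost (adjusted p = 0.0677). In Fox against Lipo the number was 0 in every fit. Of all tested genes, the edgeR fits there called from 0.00597% without Fox replicate 2 to 1.95% without Lipo replicate 1, beside 0.055% in the main fit. DESeq2 called 3.34% of the genes for which it gave an adjusted p, and only 3 of those genes were host genes. Except where the scale itself moved, the cause was not tested.

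The summed share in Fox minus Lipo, -0.000103 percentage points, turned to 0.00187 among nuclear-encoded counts and ran from -0.000662 to 0.000768 with a library left out, turning to 0.000768 without Fox replicate 2 and to 0.000123 without Lipo replicate 3. For Lipo minus Ctrl it turned to -0.000113 among nuclear-encoded counts.

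Same-numbered libraries did not deviate together in a steady way, with correlations of -0.247 to 0.232. A library was closest to its own number in 7 of 18 cases. No clear pairing by number was seen, although 3 libraries per group cannot exclude it. With the replicate block, 0, 3 and 2 host genes were called in Fox against Lipo, Lipo against Ctrl and Fox against Ctrl, as without it. Depth limits what can be said of SNHG23, SNHG21, SNHG24 and SNHG22.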
